A study of Mus musculus with 20 samples.

Results

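The 7 genes described here encode the troponin subunits of striated muscle: Tnnt1, Tnnt2 and Tnnt3 (troponin T of slow skeletal, cardiac and fast skeletal muscle), Tnni1 and Tnni2 (slow and fast skeletal troponin I), and Tnnc1 and Tnnc2 (slow skeletal and cardiac, and fast skeletal, troponin C). They were chosen by gene symbol from a count table of 26722 mouse genes. All 7 were among the 14605 genes that passed the filter on low counts. Total RNA, depleted of ribosomal RNA, was sequenced from myotubes of C2C12, a single mouse myoblast line, differentiated in horse serum for 5 days. Myotubes were then exposed to 1 of 5 treatments for 16 h, with 4 libraries each. The control received the antibody b12 (human IgG4) at 7.7 nM, and a second group received the bivalent antibody 13-3B5 (human IgG4), an activator of the receptor kinase MuSK, at 7.7 nM. The other 3 groups all received neural agrin at 0.1 nM, together with 7.7 nM of b12 (called agrin here), of 13-3B5xb12, or of 11-3F6xb12. The last 2 are antibodies that bind MuSK with 1 arm and are labelled as inhibitors. The study calls the libraries biological replicates. Nothing in the labels ties equal replicate numbers in different treatments to each other, so p-values measure the spread between these libraries.

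Troponin sits on the actin filament and makes muscle contraction depend on calcium. Troponin C binds calcium, troponin I holds the filament in its inhibited state, and troponin T anchors the complex to tropomyosin. Slow and fast fibres use different genes for each subunit, and immature skeletal muscle also uses the cardiac troponin T gene, so a culture of young myotubes can carry all of these transcripts. MuSK, activated by agrin released from the motor nerve, organises the neuromuscular synapse.

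The bases before a RefSeq transcript start were given for 5 of the 7 genes, in build GRCm38.p6, and not for Tnnt3 and Tnni2. They are shown because most of these genes moved together in the comparison of replicates below, while Tnnc1 did not. Each is the 250 bases upstream of the start, in the direction of transcription. Capitals mark every match, on either strand, to the E-box CANNTG bound by myogenic factors, the MCAT element CATTCC bound by TEAD factors (GGAATG when read on the other strand), or the TATA sequence TATAAA. The MEF2 and CArG elements were also searched, by name, and had no match in these windows. None of the matches overlap. The windows are chr7:4515976-4516225 (minus strand) for Tnnt1, chr1:135836084-135836333 (plus) for Tnnt2, chr1:135799171-135799420 (plus) for Tnni1, chr14:31208062-31208311 (plus) for Tnnc1 and chr2:164779735-164779984 (minus) for Tnnc2. In GENCODE, parts of the windows of Tnnt1, Tnni1 and Tnnc2 fall within exons of other transcripts of the same genes.
Tnnt1: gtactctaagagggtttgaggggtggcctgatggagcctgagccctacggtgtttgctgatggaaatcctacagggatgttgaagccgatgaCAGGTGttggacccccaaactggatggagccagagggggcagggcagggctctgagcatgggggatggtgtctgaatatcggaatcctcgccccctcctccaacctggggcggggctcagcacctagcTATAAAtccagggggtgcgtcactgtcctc
Tnnt2: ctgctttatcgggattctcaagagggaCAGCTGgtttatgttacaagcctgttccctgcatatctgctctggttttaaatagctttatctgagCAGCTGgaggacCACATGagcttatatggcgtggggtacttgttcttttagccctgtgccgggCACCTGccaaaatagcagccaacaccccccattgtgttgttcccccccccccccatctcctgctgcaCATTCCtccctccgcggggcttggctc
Tnni1: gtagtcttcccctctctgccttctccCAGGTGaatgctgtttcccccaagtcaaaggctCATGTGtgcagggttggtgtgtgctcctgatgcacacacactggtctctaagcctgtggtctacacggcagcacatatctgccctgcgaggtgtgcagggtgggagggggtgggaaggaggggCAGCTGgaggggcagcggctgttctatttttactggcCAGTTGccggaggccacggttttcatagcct
Tnnc1: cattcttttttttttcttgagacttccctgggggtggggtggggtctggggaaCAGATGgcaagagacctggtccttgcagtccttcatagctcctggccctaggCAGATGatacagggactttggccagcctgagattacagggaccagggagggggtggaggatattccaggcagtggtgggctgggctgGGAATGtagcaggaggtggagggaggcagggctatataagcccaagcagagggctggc
Tnnc2: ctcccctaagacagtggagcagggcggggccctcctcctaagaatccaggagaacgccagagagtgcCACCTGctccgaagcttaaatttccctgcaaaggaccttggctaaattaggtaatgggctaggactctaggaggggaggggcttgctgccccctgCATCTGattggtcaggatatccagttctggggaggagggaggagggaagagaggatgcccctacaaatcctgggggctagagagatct

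All 5 windows held an E-box, as did 66.2% of 32851 mouse windows of the same length. Tnnt2 and Tnni1 each had 4, Tnnc1 and Tnnc2 had 2, and Tnnt1 had 1. Tnnt1 alone of the 5 had a TATAAA, starting 30 bases before the transcript start, a sequence found in 12.4% of all windows. Near matches were not searched for, such as tataag in the Tnnc1 window, which differs from TATAAA in its last letter. The MCAT letters occurred in Tnnt2 (27 bases before the start) and Tnnc1 (58 bases before it, on the other strand), against 12.6% of all windows. MEF2 and CArG matches were present in 2.92% and 1.47% of all windows. These are matches of letters and do not show that a factor binds.

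Libraries held 18424881 to 23343903 counts, of which 27.9% to 39.1% came from mitochondrially encoded genes. Replicates 1 and 2 spanned 30.2% to 39.1% mitochondrial counts and replicates 3 and 4 spanned 27.9% to 32.5%. The troponin genes together took 0.617% to 0.873% of a library. Earlier results of these data had set apart replicates 1 and 2 from 3 and 4 in every treatment, and had also set apart control replicate 2 and replicate 1 of agrin with 13-3B5xb12. Among the libraries of replicates 1 and 2 those 2 were the lowest for 6 of the 7 troponin genes, the exception being Tnnc1. The 8 myotube markers were all detected and summed to 6632 to 7756 CPM (counts normalised to library size) per library, and 6 markers of dividing myoblasts to 108 to 209 CPM. Fibroblast markers, 6 in number, were also high, at 3875 to 4959 CPM, most of it from the collagen gene Col3a1 (3834 ± 203 CPM in replicates 1 and 2, 3437 ± 209 CPM in replicates 3 and 4). Summed cardiomyocyte markers reached 16.2 to 25.5 CPM and liver markers at most 7.30 CPM.

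Per kilobase of the longest coding transcript, Tnnc1 was the most abundant troponin transcript, at 2279 ± 250 CPM per kb (SD, n = 20 libraries). It was followed by Tnni2 at 1387 ± 271, Tnnt3 at 1339 ± 240.4 and Tnni1 at 1150.2 ± 169 CPM per kb. Tnnc2 stood at 919 ± 152, Tnnt1 at 563 ± 143 and Tnnt2 at 454 ± 46.0 CPM per kb. Tnnc1 ranked 1, Tnni1 ranked 4 and Tnnc2 ranked 5 in every library. Tnni2 and Tnnt3 exchanged ranks between libraries, and so did Tnnt1 and Tnnt2. The order depends on the length used: over the union of annotated exons it was Tnnc1, Tnnt3, Tnnc2, Tnni2, Tnni1, Tnnt1 and Tnnt2. In CPM, without regard to length, the 7 genes ranked between 19 and 119 among the 14605 tested.

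**Figure D1:**
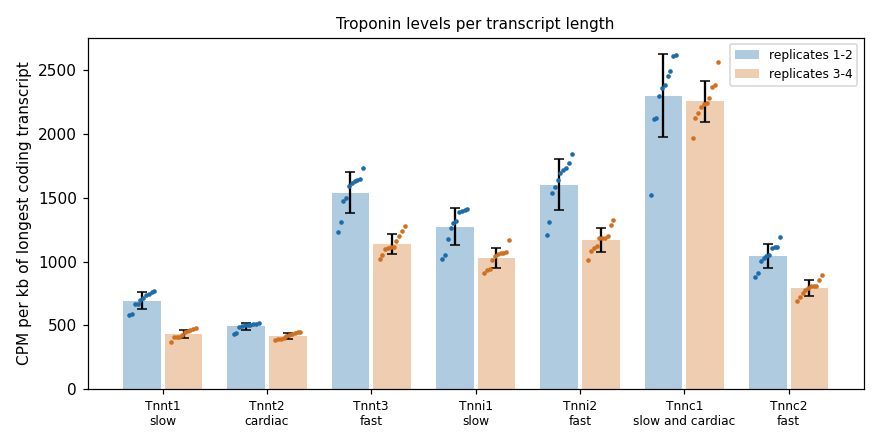
Level of each troponin transcript in CPM per kb of its longest coding transcript; bars are means of the 10 libraries of replicates 1 and 2 (blue) and of replicates 3 and 4 (orange), error bars are SD and points are libraries. Tnnc1 lies highest, with a mean over all libraries of 2279 CPM per kb, and Tnnt2 lowest, with 454 CPM per kb.

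Of the 7 genes, 6 were lower in replicates 3 and 4 than in replicates 1 and 2 (edgeR quasi-likelihood test with treatment in the model, adjusted p under 0.05), and none was higher. Of all genes tested 7.13% were called lower and 5.93% higher. The median log2 fold change of the 7 genes was -0.40 and that of all genes 0.01. Highly expressed genes were called more often: of the 136 genes with a mean of at least 500 CPM, a limit set after the data were seen, 21.3% were lower and 20.6% higher. The division of the replicates was known from earlier results of these data, so these tests are not independent of it. They also count each library as a separate unit, although replicate numbers run across all treatments. With the replicate number as the unit, the comparison is only 2 against 2. The p-values for genes, here and below, therefore measure the spread between libraries and not between replicate numbers, and may be too small. Counts of treatments without overlap, for genes and ratios below, are given as values only. How often all genes separate in this way within a treatment was not recorded. In a culture, fewer cells of a type and less RNA per cell cannot be told apart.

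Tnnt1 (ENSMUSG00000064179, chr7:4504570-4516382, minus strand) encodes slow skeletal troponin T and had the largest difference of the 7. In the control its 4 libraries held 817, 623, 390 and 503 CPM, in replicate order. With bivalent 13-3B5 they held 757, 793, 476 and 487 CPM, and with agrin 736, 808, 434 and 479.6 CPM. Replicates 3 and 4 were below replicates 1 and 2 in each of these treatments, with no overlap. Agrin with 13-3B5xb12 gave 618, 703, 433 and 498 CPM, and agrin with 11-3F6xb12 gave 777, 707, 434 and 452 CPM. Across treatments, replicates 1 and 2 had 734 ± 71.3 CPM and replicates 3 and 4 had 459 ± 36.1 CPM (SD, n = 10 libraries each). The highest library of replicates 3 and 4, at 503 CPM, lay below the lowest of replicates 1 and 2, at 618 CPM. Of all genes, 1.14% were lower and 0.541% higher without overlap. The log2 fold change was -0.68 (SE 0.05, edgeR adjusted p = 1.65e-11), a fall of 37.4%, and Tnnt1 ranked 24 by p among the 14605 genes.

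Tnnt3 (ENSMUSG00000061723, chr7:142498836-142516009, plus strand), the fast skeletal troponin T gene, was also lower in all 5 treatments. Replicates 1 and 2 ranged from 1332 to 1875 CPM with a median of 1734, and replicates 3 and 4 from 1099 to 1381 CPM with a median of 1202. The ranges overlapped across treatments, but within each of the 5 treatments both later libraries were below both earlier ones. The log2 fold change was -0.43 (SE 0.05, edgeR adjusted p = 7.45e-09). Tnnt2 (ENSMUSG00000026414, chr1:135836354-135852260, plus strand), the cardiac troponin T gene, had the smallest of the 6 differences. It ranged from 520 to 620.4 CPM (median 605) in replicates 1 and 2 and from 458 to 537 CPM (median 503) in replicates 3 and 4. Its log2 fold change was -0.24 (SE 0.04, edgeR adjusted p = 9.34e-05), and the libraries did not overlap in 3 of the 5 treatments. For Tnnc1, which was not called, they did not overlap in 2 of the 5.

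**Figure D2:**
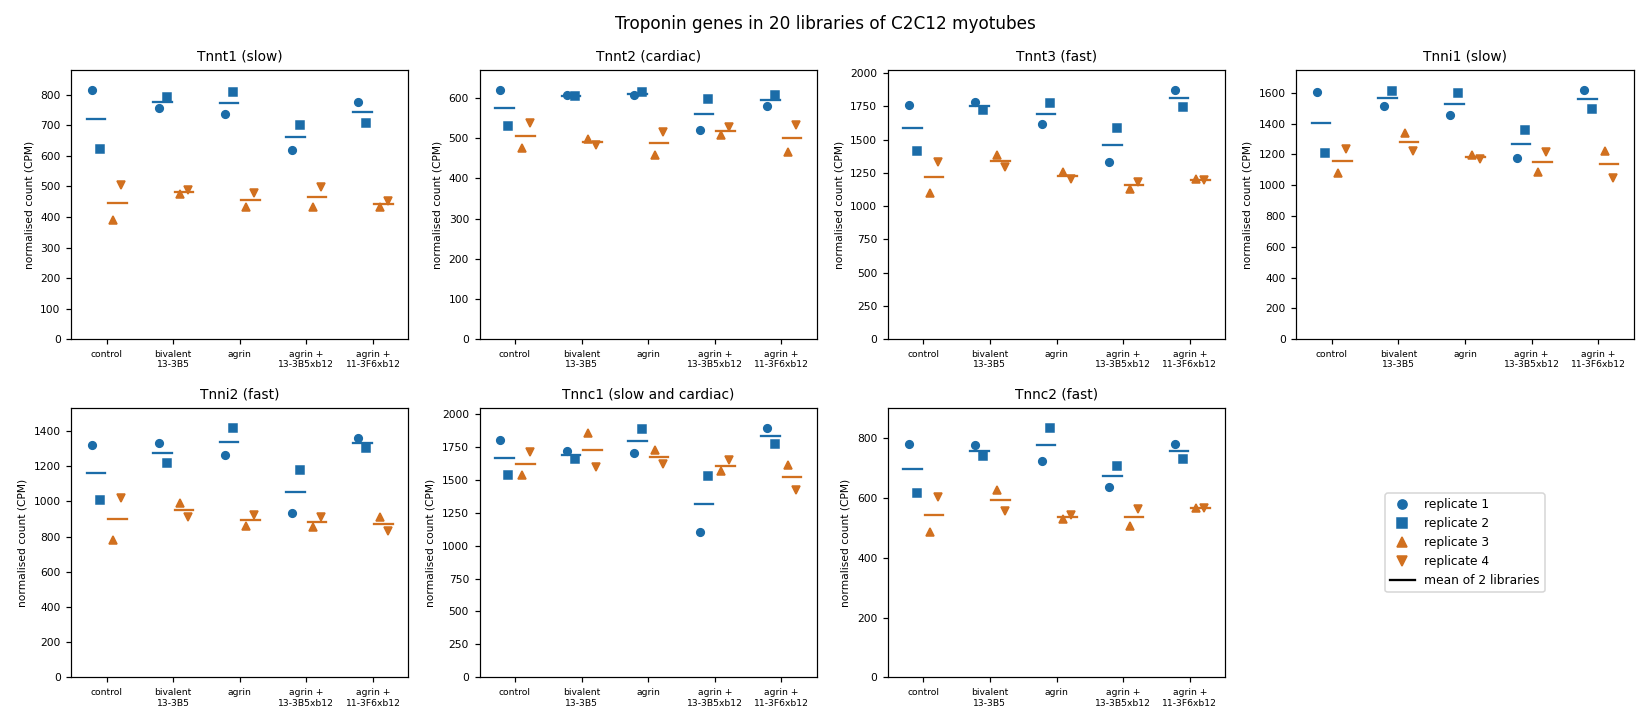
CPM of each troponin gene in each of the 20 libraries, by treatment, with replicates 1 and 2 in blue and replicates 3 and 4 in orange; lines are means of 2 libraries. The later replicates lie lower for 6 genes, most clearly for Tnnt1 (390 to 503 against 618 to 817 CPM), while those of Tnnc1 overlap.

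Both troponin I genes were lower. Tnni1 (ENSMUSG00000026418, chr1:135779434-135810989, plus strand), of slow fibres, ranged from 1174 to 1621 CPM (median 1506) in replicates 1 and 2 and from 1048 to 1341 CPM (median 1208) in replicates 3 and 4. Its log2 fold change was -0.31 (SE 0.05, edgeR adjusted p = 3.88e-05), and 3 of 5 treatments showed no overlap. Tnni2 (ENSMUSG00000031097, chr7:142441808-142444410, plus strand), of fast fibres, ranged from 931 to 1417 CPM (median 1281) and from 778 to 1017 CPM (median 909.9). The log2 fold change of Tnni2 was -0.45 (SE 0.06, edgeR adjusted p = 8.15e-06), with no overlap in 4 of 5 treatments. The exception was the control, where replicate 2 had 1005 CPM and replicate 4 had 1017 CPM.

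The troponin C genes differed from each other. Tnnc2 (ENSMUSG00000017300, chr2:164777161-164779967, minus strand), of fast fibres, had 781, 614, 486 and 601 CPM in the control and 722, 833, 529 and 543 CPM with agrin. It had 777, 738, 626 and 557 CPM with bivalent 13-3B5. The later replicates were lower without overlap in all 5 treatments, and the log2 fold change was -0.40 (SE 0.05, edgeR adjusted p = 5.72e-08). The gene shares 592 exonic bases with Ube2c on the opposite strand, which had 76 to 156 counts per library. The strand setting of the counting is not given in the sources used here.

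Tnnc1 (ENSMUSG00000091898, chr14:31208312-31211729, plus strand), of slow and cardiac muscle, did not pass the test. It had 1800.5, 1533, 1532 and 1709.8 CPM in the control and 1704, 1886, 1721 and 1618 CPM with agrin. With bivalent 13-3B5 it had 1719, 1659.5, 1851 and 1597 CPM, so the replicates overlapped in these 3 treatments. Agrin with 13-3B5xb12 gave 1100.3, 1529, 1562 and 1645 CPM, both later libraries being the higher ones. Agrin with 11-3F6xb12 gave 1892, 1773, 1611 and 1422 CPM, both later libraries being the lower ones. The log2 fold change over all treatments was -0.02 (SE 0.06, 95% interval -0.16 to 0.11, edgeR adjusted p = 0.904). Within treatments it ranged from -0.28 to 0.31. A test of whether the replicate difference itself differed between treatments gave Tnnc1 an unadjusted p of 0.0319 and an adjusted p of 0.966 (edgeR). That test called 0 of the 7 genes by adjusted p and 1 of 7 by an unadjusted p under 0.05, against 0.00685% and 4.85% of all genes. Tnnc1 was named when agrin with 13-3B5xb12 replicate 2 was left out, a fit in which the library with 1100.3 CPM is the only early one of its group. It was also called with no filter on low counts (edgeR adjusted p = 0.0228). How many of all genes either fit called was not recorded, so whether these calls set Tnnc1 apart from other genes cannot be told.

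**Figure D3:**
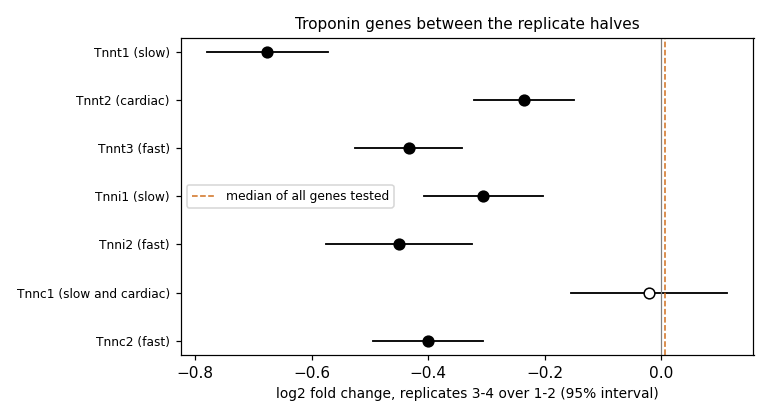
Log2 fold change of each troponin gene, replicates 3 and 4 against 1 and 2, from the edgeR model with treatment; lines are 95% intervals, filled points passed the test, and the dashed line is the median of all genes tested. Intervals lie below 0 for 6 genes, from -0.24 for Tnnt2 to -0.68 for Tnnt1, and the interval of Tnnc1 spans 0.

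Isoform balance was measured as the log2 ratio of 2 counts within a library, with 0.5 added to each count, which needs no scaling between libraries. These ratios compare isoforms between libraries and are not per length. The slow to fast ratio moved in opposite directions in different subunits. From replicates 1 and 2 to replicates 3 and 4, Tnnt1/Tnnt3 was lower, whereas Tnni1/Tnni2 and Tnnc1/Tnnc2 were higher. The cardiac to fast ratio Tnnt2/Tnnt3 was higher too. Each ratio had an adjusted p of 0.000514 in an exact two-sided permutation test over all relabellings of libraries within treatments, adjusted over 4 ratios. That test treats libraries as free within a treatment, although replicate numbers run across all 5 treatments. With means per replicate number as the unit, 2 against 2, no ratio passed (exact p = 0.333, the smallest such a test can give).

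For troponin T, the Tnnt1/Tnnt3 log2 ratio was -1.11, -1.18, -1.50 and -1.41 in the control replicates. It was -1.14, -1.13, -1.53 and -1.33 with agrin and -1.23, -1.12, -1.54 and -1.41 with bivalent 13-3B5. The later libraries were the lower ones without overlap in all 5 treatments. The mean was -1.18 ± 0.07 in replicates 1 and 2 and -1.42 ± 0.09 in replicates 3 and 4 (SD, n = 10 each). The difference of -0.24 amounts to a ratio 15.6% lower (exact p = 0.000257, the smallest the test can give). Tnnt2/Tnnt3 went from -1.49 ± 0.10 to -1.29 ± 0.13, a difference of 0.20 or 14.6% (exact p = 0.000514), with no overlap in 4 of 5 treatments. Per kb of coding transcript, Tnnt1 made up 25.4% of troponin T transcripts in replicates 1 and 2 and 21.8% in replicates 3 and 4. Tnnt2 made up 18.1% and 21.0%, and Tnnt3 56.5% and 57.2%. The shares depend on the length used. Over the union of annotated exons they were 22.8% and 19.8% for Tnnt1, 5.23% and 6.17% for Tnnt2, and 71.9% and 74.0% for Tnnt3.

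For troponin I, Tnni1/Tnni2 had a mean log2 ratio of 0.25 ± 0.07 in replicates 1 and 2 and 0.40 ± 0.07 in replicates 3 and 4. The difference was 0.14, or 10.6%, with an exact p of 0.000514. It was positive in all 5 treatments, from 0.10 in the control to 0.22 with agrin, and 4 of the 10 later libraries lay within the range of the earlier ones. Per kb of coding transcript, the slow gene took 44.3% and 46.8% of troponin I transcripts, and over the union of annotated exons 33.1% and 35.4%.

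For troponin C, Tnnc1/Tnnc2 was 1.21, 1.32, 1.66 and 1.51 in the control, and 1.24, 1.18, 1.70 and 1.57 with agrin. With bivalent 13-3B5 it was 1.15, 1.17, 1.56 and 1.52. Later and earlier libraries did not overlap in these treatments. Agrin with 13-3B5xb12 gave 0.79, 1.12, 1.63 and 1.54, and agrin with 11-3F6xb12 gave 1.28, 1.28, 1.51 and 1.33. Over all treatments, replicates 1 and 2 spanned 0.79 to 1.32 and replicates 3 and 4 spanned 1.33 to 1.70, so the ranges met without overlapping. The difference of 0.38, a ratio 30.3% higher, was the largest of the 4 (exact p = 0.000257). Per kb of coding transcript, Tnnc1 took 68.6% and 74.0% of troponin C transcripts, and over the union of annotated exons 63.4% and 69.3%.

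**Figure D4:**
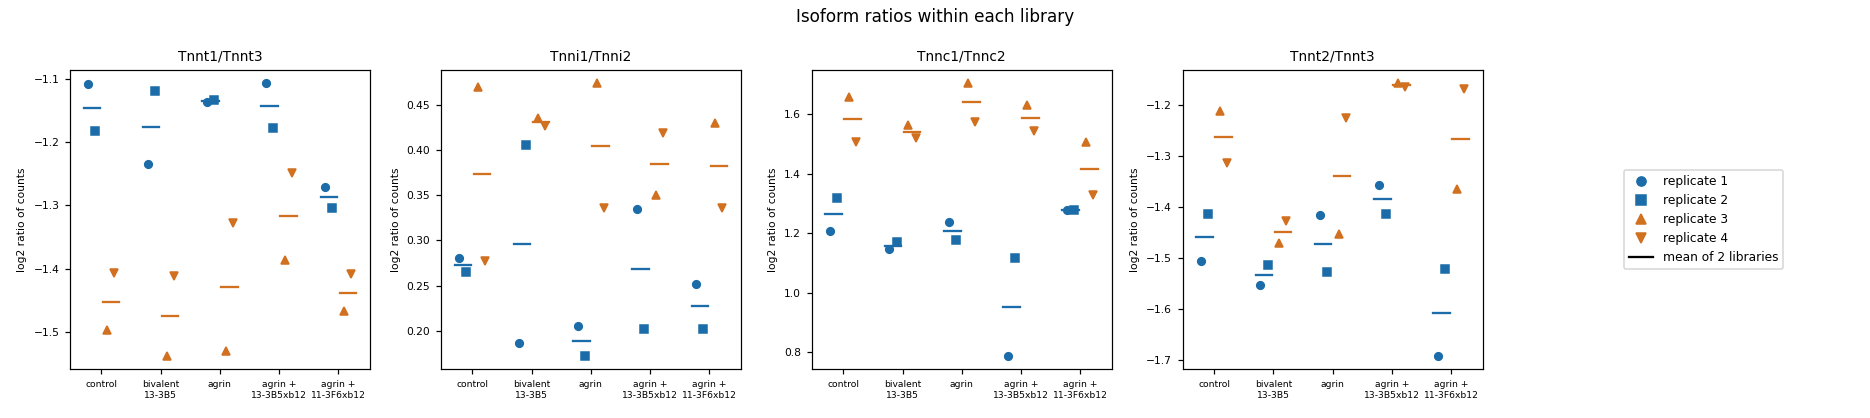
Log2 ratio of slow to fast, and of cardiac to fast, troponin counts in each library, by treatment and replicate; lines are means of 2 libraries. Tnnt1/Tnnt3 is lower in replicates 3 and 4 (mean -1.42 against -1.18), and Tnnc1/Tnnc2 is higher (1.55 against 1.17).

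No troponin gene passed the test between treatments. In the test over all 5 treatments, edgeR called 0 of the 7, as it did of all genes (0%). At an unadjusted p under 0.05 it found 0 of the 7 and 2.25% of all genes, and DESeq2 also called 0 of the 7. All 10 comparisons of 2 treatments gave 0 calls among the 7 genes with edgeR and with DESeq2. By adjusted p, edgeR called 0% of all genes in each of these comparisons. The DESeq2 calls over all genes were not recorded. Of the 70 values, 2 had an unadjusted p under 0.05, and log2 fold changes ran from -0.25 to 0.20. Over all genes the share at an unadjusted p under 0.05 was, against the control, 2.77% for bivalent 13-3B5, 2.85% for agrin, 2.39% for agrin with 13-3B5xb12 and 3.25% for agrin with 11-3F6xb12. Against bivalent 13-3B5 it was 2.39% for agrin, 4.33% for agrin with 13-3B5xb12 and 1.91% for agrin with 11-3F6xb12. Agrin with 11-3F6xb12 gave 3.33% against agrin and 4.22% against agrin with 13-3B5xb12. Both troponin values were of Tnnc1 in agrin with 13-3B5xb12, which had 1459 ± 244 CPM (SD, n = 4). Against agrin, with 1732 ± 112 CPM, the log2 fold change was -0.25 (SE 0.10, edgeR adjusted p = 0.999), and 3.83% of all genes had an unadjusted p under 0.05 there. Against bivalent 13-3B5, with 1706 ± 108 CPM, it was -0.23 (SE 0.10, edgeR adjusted p = 0.971). The 4 libraries of agrin with 13-3B5xb12 included the single lowest Tnnc1 value, 1100.3 CPM.

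The replicate difference widens the spread within each treatment. The level of Tnnt1 was 614 ± 185 CPM with agrin, against 583 ± 183 CPM for the control and 628 ± 170.2 CPM for bivalent 13-3B5 (SD, n = 4). Tnnt1 reached 563 ± 121 CPM in agrin with 13-3B5xb12 and 593 ± 175 in agrin with 11-3F6xb12. The SE of a Tnnt1 comparison between 2 treatments was 0.29, and with the replicate division as a term it was 0.08. With that term, agrin against control gave Tnnt1 a log2 fold change of 0.07 (95% interval -0.10 to 0.23) and Tnnc1 one of 0.08 (-0.14 to 0.29). Bivalent 13-3B5 against control gave Tnnt1 0.11 (-0.06 to 0.27) and Tnnt3 0.14 (-0.01 to 0.29). These comparisons share the control libraries. Still 0 of the 70 values passed, while 0 to 10 of all genes were called in a comparison. An unadjusted p under 0.05 was found for 7 of the 70, and for 4.5% of the values of all genes over the same 10 comparisons. All 7 came from comparisons that include agrin with 13-3B5xb12, whose replicate 1 is 1 of the libraries set apart. The 70 values share libraries and are not independent. The one with the smallest p belonged to Tnnt3 in agrin with 13-3B5xb12 against bivalent 13-3B5, at -0.24 (SE 0.07, edgeR adjusted p = 0.803).

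The 2 inhibiting antibodies were given at the same dose with the same agrin. Agrin with 11-3F6xb12 minus agrin with 13-3B5xb12 gave Tnnt3 a log2 difference of 0.20 (SE 0.19, 95% interval -0.19 to 0.59). For Tnnc1 it was 0.20 (SE 0.10, interval -0.01 to 0.40) and for Tnnt2 0.02 (SE 0.10, interval -0.19 to 0.23). The adjusted p of these was at least 0.992 (edgeR). With the replicate division as a term, Tnnt3 had 0.18 (SE 0.07, interval 0.04 to 0.33, edgeR adjusted p = 0.638). Tnnc1 then had 0.20 (SE 0.10, interval -0.02 to 0.41) and Tnnt2 0.02 (SE 0.07, interval -0.12 to 0.15). That fit called 10 of all genes and no troponin gene. By adjusted p no difference between the antibodies was detected in these genes, and intervals of this width do not show that they act alike.

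Isoform ratios did not pass a test between treatments either. The range of the 5 treatment means was 0.13 for Tnnt1/Tnnt3, 0.07 for Tnni1/Tnni2, 0.15 for Tnnc1/Tnnc2 and 0.22 for Tnnt2/Tnnt3. Permutation tests with 100000 resamples gave p values of 0.805, 0.917, 0.902 and 0.312, all 0.917 after adjustment over 4 ratios. Of 40 comparisons between 2 treatments, 1 had an exact p under 0.05. It was Tnnt2/Tnnt3 in agrin with 13-3B5xb12, 0.22 above bivalent 13-3B5 (exact permutation p = 0.0286, the smallest that 4 against 4 libraries can give, adjusted p = 0.941).

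Other contractile genes were read in the same comparison of replicates 3 and 4 with 1 and 2, from lists chosen with earlier results of these data known. Beside the list counts stand 7.13% lower and 5.93% higher over all genes tested, and 21.3% and 20.6% among genes with a mean of at least 500 CPM. Of 10 slow-fibre genes tested, 5 were lower and 0 higher, with a median log2 fold change of -0.29. Myh7b, a slow-type myosin heavy chain gene, had -1.23 (SE 0.09), and Myl2, the slow and cardiac regulatory light chain, had -1.18 (SE 0.12). Atp2a2, the slow-fibre calcium pump of the sarcoplasmic reticulum, had -0.47 (SE 0.06). Of 13 fast-fibre genes, 7 were lower and 0 higher, with a median of -0.32, and 9 of the 13 had a value below 0. Myoz1, a Z-disc protein gene, had -1.12 (SE 0.19), the fast myosin-binding protein gene Mybpc2 -0.83 (SE 0.07) and the fast-fibre calcium pump gene Atp2a1 -0.68 (SE 0.07). Not called were the myosin heavy chain genes Myh1 (-0.04), Myh2 (0.04) and Myh4 (0.10). Mylpf (-0.07), Actn3 (0.05) and Pvalb (0.72, SE 0.44) were not called either. Pvalb had only 0.447 ± 0.223 CPM in replicates 1 and 2 and 0.768 ± 0.472 CPM in replicates 3 and 4.

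Of 15 other thin-filament genes, 11 were lower and 0 higher, with a median of -0.33. This list shares Tpm3 with the slow-fibre list, and Actc1 and Tnni3 with the developmental and cardiac list. The giant actin-binding ruler Neb had -0.73 (SE 0.09), Klhl41, which stabilises nebulin, -0.69 (SE 0.05), and the cardiac troponin I gene Tnni3 -0.66 (SE 0.17). Tnni3 was at 5.55 ± 1.81 CPM in replicates 1 and 2 and 3.51 ± 0.816 CPM in replicates 3 and 4. The skeletal actin gene Acta1, at 2368 ± 94.8 and 2284 ± 103 CPM, did not pass (log2 fold change -0.05, SE 0.04, edgeR adjusted p = 0.421). Of 8 developmental and cardiac genes, 2 were lower and 1 higher. Tnni3 belongs to this list as well, cardiac actin Actc1 had -0.30 (SE 0.05), and the stress-responsive Ankrd1 had 0.27 (SE 0.04).

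**Figure D5:**
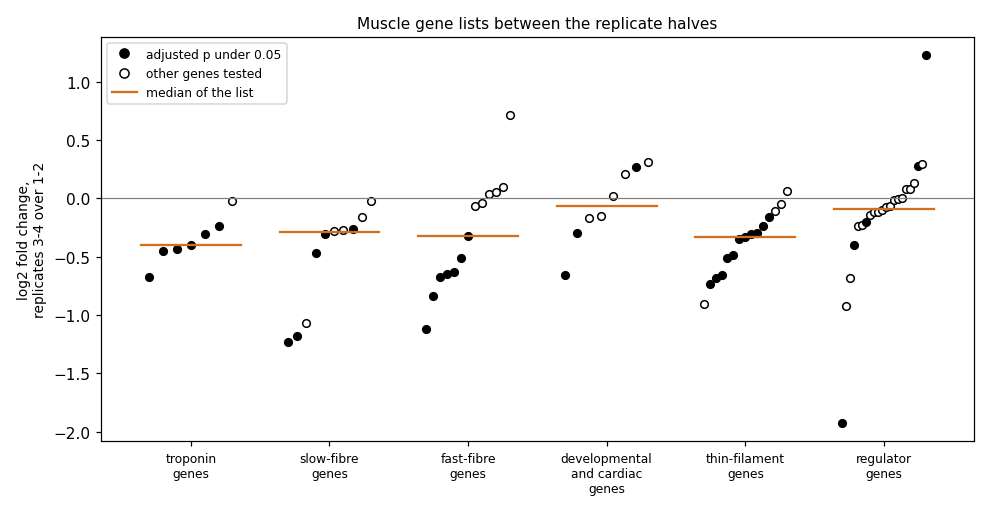
Log2 fold change, replicates 3 and 4 against 1 and 2, of each tested gene in the contractile and regulator lists beside the 7 troponin genes; filled points passed the test and lines are list medians. These are -0.29 for slow-fibre, -0.32 for fast-fibre and -0.33 for thin-filament genes, and -0.09 for regulators.

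Of 22 regulators of muscle genes tested, 3 were lower (13.6%) and 2 higher (9.09%), with a median of -0.09. Beside 7.13% and 5.93% of all genes, these few calls do not set the list apart, and its genes are given as values. Ppargc1a, a coactivator of mitochondrial and slow-fibre genes, had -1.93 (SE 0.37) at 1.60 ± 0.807 and 0.404 ± 0.240 CPM. Mef2c, a MADS-box factor of muscle genes, had -0.40 (SE 0.05) and Six4, a homeobox factor, -0.20 (SE 0.04). Vgll2, a cofactor of TEAD proteins, had 1.23 (SE 0.29) at 1.14 ± 0.651 and 2.50 ± 0.845 CPM, and Eya1, a phosphatase cofactor of homeobox factors, had 0.28 (SE 0.08). No gene of any list was called between treatments.

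Cell type markers were compared in the same way. Beside their counts stand 7.13% lower and 5.93% higher over all genes tested. Among genes with a mean of at least 500 CPM, these shares were 21.3% and 20.6%. Of 8 myotube markers, 1 was lower, the muscle creatine kinase gene Ckm at -0.72 (SE 0.06). Their median log2 fold change was -0.03, and their summed level was 6859 to 7756 CPM in replicates 1 and 2 and 6632 to 7521 CPM in replicates 3 and 4. Of 6 myoblast markers, 1 was lower, the cyclin gene Ccnb1 at -0.65 (SE 0.15), with sums of 126 to 203 and 108 to 209 CPM. The median of the myoblast markers was -0.37, beside -0.40 for the troponin genes, and 5 of the 6 had a value below 0. Of 5 fibroblast markers tested, 3 were lower, with a median of -0.26 and sums of 4477 to 4959 and 3875 to 4733 CPM. They were the collagen genes Col1a1 at -0.75 (SE 0.16) and Col3a1 at -0.16 (SE 0.04), and the proteoglycan gene Lum at -0.37 (SE 0.11). The part of these markers, and of the mitochondrial share, in the troponin differences was not tested.

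Likeness to other genes was measured by the correlation of log2 CPM over the 20 libraries after the means of treatment and replicate division were removed, among 11149 genes. These values describe libraries that share depth and composition and carry no test. The nearest gene to Tnnt1 was Myl1, the fast skeletal essential light chain (r = 0.923). Tnnt3 and Tnni2 both had Ndufb4, a subunit of respiratory complex I, as the nearest (r = 0.968 and 0.970), and Tnni2 was itself among the 3 nearest to Tnnt3 (r = 0.934). The nearest to Tnnt2 was Popdc3 (r = 0.909), to Tnni1 Dbi (r = 0.926), to Tnnc1 Lgals1 (r = 0.946) and to Tnnc2 Hes6 (r = 0.919). Without control replicate 2 and replicate 1 of agrin with 13-3B5xb12 the values of these nearest genes lay at 0.825 to 0.932.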

How the data were processed

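Gene counts were deposited by the authors as 1 table of 20 libraries. Per the submitters' processing notes, Trim Galore 0.6.6, cutadapt 2.10, STAR 2.7.6a, HTSeq 0.12.4, DESeq2 1.32.0 and build GRCm38 were used. Their roles, the annotation and the strand setting of the counting are not given in the sources used here. Per the labels' protocols, libraries were stranded and depleted of ribosomal RNA.

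Members and gene lists were chosen with earlier results of these data known. The deposited counts were tested with edgeR 4.0.16 in R 4.3.3: filterByExpr (minimum count 10, minimum total 15), TMM scaling, robust quasi-likelihood F tests and Benjamini-Hochberg adjustment over all 14605 genes, threshold 0.05. CPM values use the TMM-scaled library sizes. Treatments were compared with treatment alone in the model, replicates 3 and 4 against 1 and 2 with treatment as a further term, and the difference of that effect between treatments with their product. Ratios of counts were tested by permutation as given with them. Log2 CPM for likeness used a prior count of 2.

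Alternatives were DESeq2 1.42.0 and its size factors, other filters on low counts, removal of mitochondrially encoded genes, a transcript length correction with limma 3.58.1, the replicate number as a block, the replicate division as a term, a pseudocount of 5, and leaving out each library or the 2 set apart. On simulated counts for the comparison of replicates (14287 genes), 76.1% of 1.25-fold, 98.5% of 1.5-fold and 100% of 2-fold changes were called, with 14 false calls. For agrin against control (14265 genes) 32.8%, 73.1% and 97% were called, with 6 false calls. That simulation held no replicate difference, and its spread came from a fit with the replicate division as a term. On the real counts the replicate difference widens the spread, so for troponin genes that differ between replicates these shares are too high.

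All 7 troponin genes were named in every comparison. From each list, up to 3 genes per direction with the largest change among those called were named, with the 3 genes of highest correlation for each troponin gene, of which the nearest is printed for all. Acta1 and the fast-fibre genes not called were named after their values were seen. Positions are from GENCODE M21 (GRCm38), and upstream sequences are from RefSeq. No 2 libraries of a treatment agreed within counting noise: chi-square per gene was at least 5.17 over 30 pairs. Liver markers were not tested because none passed the filter. Of 5 cardiomyocyte markers tested, 1 was lower in replicates 3 and 4, Tnni3, beside 7.13% of all genes.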

Additional observations from a re-analysis of the deposited data

Results flagged for a closer look

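Each measure was examined for a library far from the other 3 of its treatment, by the gap to its nearest neighbour divided by the range of the group. Of 55 groups, 2 passed Dixon's 95% limit, and chance gives about 1 in 20, or 2.75. Both were the slow to fast troponin I ratio, Tnni1/Tnni2. With bivalent 13-3B5, replicate 1 had a log2 ratio of 0.19, whereas the other 3 libraries lay between 0.41 and 0.44 (gap over range 0.879). In the control, replicate 3 had 0.47, whereas the other 3 lay between 0.26 and 0.28 (gap over range 0.922).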

How the results depend on the processing

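The 6 troponin genes called between replicates 3 and 4 and replicates 1 and 2 numbered 6 under each of 8 other settings and in each of the 20 fits without 1 library, while calls over all genes ranged from 1908 to 2680 and from 1651 to 2101. Tnnc1 was on the other side of 0 without agrin with 11-3F6xb12 replicate 1 (log2 fold change 0.0033) and without its replicate 4 (0.0103), within a range of -0.074 to 0.0103 without 1 library, and its adjusted p was at least 0.115 under every setting run. In the comparisons of treatments 0 of the 7 genes were called in every setting run. The test of a replicate difference that differs between treatments called 1 of the 7 genes, Tnnc1, with no filter on low counts. Among the fits without 1 library it named Tnnc1 only when agrin with 13-3B5xb12 replicate 2 was left out, which leaves 1 early library in that group. How many of all genes were called in these fits was not recorded. The cause was not tested.

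With the replicate number as a block, the test over treatments called 2 of all genes, the 10 pairs called 0 to 5, and none of these calls was a troponin gene (smallest adjusted p 0.722). Libraries with the same number deviated together only in part: 33 of 40 correlations were above 0.1, the smallest was 0.0082, and their mean was 0.195, against 0.201 between different numbers of the same replicate division. The replicate difference cannot be fitted with the number as a fixed block. With the number as a random effect in limma (consensus correlation -0.0539), 6 troponin genes were called. With means per replicate number as the unit, a replicate block of 2 against 2, the ratio differences were -0.24 for Tnnt1/Tnnt3, 0.14 for Tnni1/Tnni2, 0.38 for Tnnc1/Tnnc2 and 0.20 for Tnnt2/Tnnt3. Their exact p was 0.333, the smallest that 2 against 2 can give.

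The replicate difference lies inside each treatment and widens the spread that comparisons of treatments are set against. Counting error is small for these genes, whose lowest count in any library was 7618, so the spread between libraries limits precision. Which condition separates replicates 1 and 2 from 3 and 4 is not given in the sources used here, and the division cannot be told apart from anything else that differed between them. Calls concern transcripts and not protein.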

Other observations

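Troponin I and T genes lie side by side in the mouse genome. The log2 fold changes of each such pair between replicates 3 and 4 and replicates 1 and 2 are given here as values, chosen after they were seen and not tested. On chromosome 7, Tnnt1 (-0.68) and the cardiac troponin I gene Tnni3 (-0.66, SE 0.17) are 1.9 kb apart. Also on chromosome 7, Tnnt3 (-0.43) and Tnni2 (-0.45) are 54.4 kb apart, and the one protein-coding gene between them, Lsp1, had 0.19 (SE 0.05, edgeR adjusted p = 0.00414). On chromosome 1, Tnnt2 (-0.24) and Tnni1 (-0.31) are 25.4 kb apart. The gene between those, Lad1, did not pass the filter on low counts. Genes on different chromosomes were as close, for example Tnnc2 (-0.40) and Tnnt3. After the means of treatment and replicate division were removed, log2 CPM over the 20 libraries correlated at r = 0.934 for Tnnt3 and Tnni2. It was 0.519 for Tnnt2 and Tnni1, while Tnnc2 and Tnnt3 had 0.857. Of the 11149 genes, 99.97% and 99.8% had a lower r to Tnnt3 than Tnni2 and Tnnc2. To Tnnt2, 86.6% had a lower r than Tnni1. Without the 2 libraries set apart, r for Tnnt3 and Tnni2 was 0.858.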
